A study of Mus musculus with 24 samples.

Results

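The SLC25 family comprises the nuclear-encoded carriers that move nucleotides, phosphate, keto acids, amino acids, acylcarnitines, cofactors and iron across the inner mitochondrial membrane. Members were all genes whose platform symbol begins with Slc25a, each represented by its brightest probe set. They numbered 44, of 18193 genes with a probe set of 1 symbol, and 93 probe sets carried their symbols. Of the 44, 40 passed the filter on dim signals and were tested among 13880 genes. Slc25a2, Slc25a31, Slc25a41 and Slc25a54 lay under it, with mean signals of 117, 18.8, 92.3 and 90.2 on the array scale, and were not tested.

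Whole adrenal glands of male C57B/6J mice, 3 months old, were profiled on Affymetrix arrays to ask which transcripts follow the circadian clock. All animals were wild type, had 2 weeks of 12 h light and 12 h darkness, and were then kept in constant darkness, so every group shares the absence of light cues. Arrays came from 12 time points, 38 to 82 h after lights off at steps of 4 h, with 2 arrays each and 24 in total. These time points fall on projected circadian times (CT) 2, 6, 10, 14, 18 and 22, where CT 0 is when the lights would have switched on and CT 12 when they would have gone off. Whether both arrays of a time point represent different mice is not given in the labels, and the p-values below therefore reflect variation among arrays that could be technical in origin.

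SLC25 carriers are built from repeats of paired membrane helices and alternate between an outward and an inward open state, exchanging one substrate for another or carrying it with a proton. They set the supply of ADP, phosphate, citrate and malate on which respiration and the export of reducing power rest. In the adrenal cortex, mitochondria also house the side-chain cleavage and later hydroxylase steps of steroid synthesis, which draw on NADPH made inside the organelle.

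Several properties of the arrays bear on every value below. In 6 pairs of arrays every probe set brighter than 50 matched to 5%, a spread below that of all other array pairs at one circadian time, and each pair entered as 1 sample, which left 18 profiles, 3 per circadian time. Of the 6 pairs, 5 join time points of different days. The 8 arrays at CT 10 and CT 18 stood apart from the other 16 in control probe sets, with 18S signals of 606 to 2652 against 5150 to 6357, and are called the second array set. Skeletal muscle markers (7 of 7 on the array) summed to 402 to 534 in the first set, where Mylpf and Tnnt3 were listed at 0. In the second set they summed to 449 to 9760 at CT 10 and 727 to 27400 at CT 18, and Acta1, the muscle actin, exceeded 1000 in 4 profiles. Liver markers (5 of 6) summed to 1090 to 2730 in the first set and up to 17000 at CT 18, and fat markers (5 of 7) ranged from 18600 to 39800 within the first set. The defining cortex markers (7 of 7) summed to 68198 to 71300 in the first set. In the second set they summed to 63171 to 67180 at CT 10, without overlap, and to 58697 to 68663 at CT 18. Of the 7 cortex genes, 3 were lower in the second set and 0 higher (limma, adjusted p under 0.05). Cyp11a1, Cyp21a1 and Mc2r changed by -0.24, -0.316 and -0.215 on the log2 scale (adjusted p = 2.71e-05, 0.00739 and 0.039). Medulla markers (5 of 6) summed to 32100 to 41600 over all profiles. The array of 78 h replicate 2, at CT 18, had a ratio of 5' to 3' Gapdh signal of 0.0386, against 0.822 to 1.15 on the other arrays. The part of these differences in the results was not tested, except where values without such profiles are given.

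The first question was which carriers followed a 24 h rhythm. The clearest rhythms lay in Slc25a13, Slc25a30, Slc25a10 and Slc25a33, and a smaller one in Slc25a29. Slc25a13, Slc25a30 and Slc25a10 peaked between CT 4 and CT 6 and Slc25a33 and Slc25a29 between CT 15 and CT 19. These 5 of 40 tested members (12.5%) passed a 24 h cosine test at an adjusted p of 0.05 (limma, Benjamini-Hochberg over all genes), as did 12.8% of all genes tested. When the array set was a further term, 11 of 40 members passed (27.5%), beside 17.9% of all genes. The 5 passed in both fits, as did 11% of all genes, and 6 passed only with the array set as a term, against 6.86% of all genes. No member passed only without that term, against 1.78% of all genes. Within the first set alone, which holds CT 2, 6, 14 and 22, 7 members passed beside 12.3% of all genes, and 3 members (Slc25a10, Slc25a13 and Slc25a33) passed in all 3 fits beside 6.9%. The share of rhythmic members was close to that of all genes in the fit without the term and larger with it and in the first set alone, and whether these larger shares differ from the background was not tested. The median amplitude, the distance from the mean to the peak of the fitted curve in log2 units, was 0.118 for the members and 0.115 for all genes. The fit with the array set gave 0.082 for the members and 0.093 for all genes. At an unadjusted p under 0.05, 16 members passed without the term, beside 30.9% of all genes, and 17 with it, beside 32%. Without 78 h replicate 2, 9 members passed without the term and 11 with it, beside 12.1% and 18.4% of all genes. Without the 4 profiles of high Acta1, 8 and 11 passed, beside 7.33% and 13.9%.

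**Figure D1:**
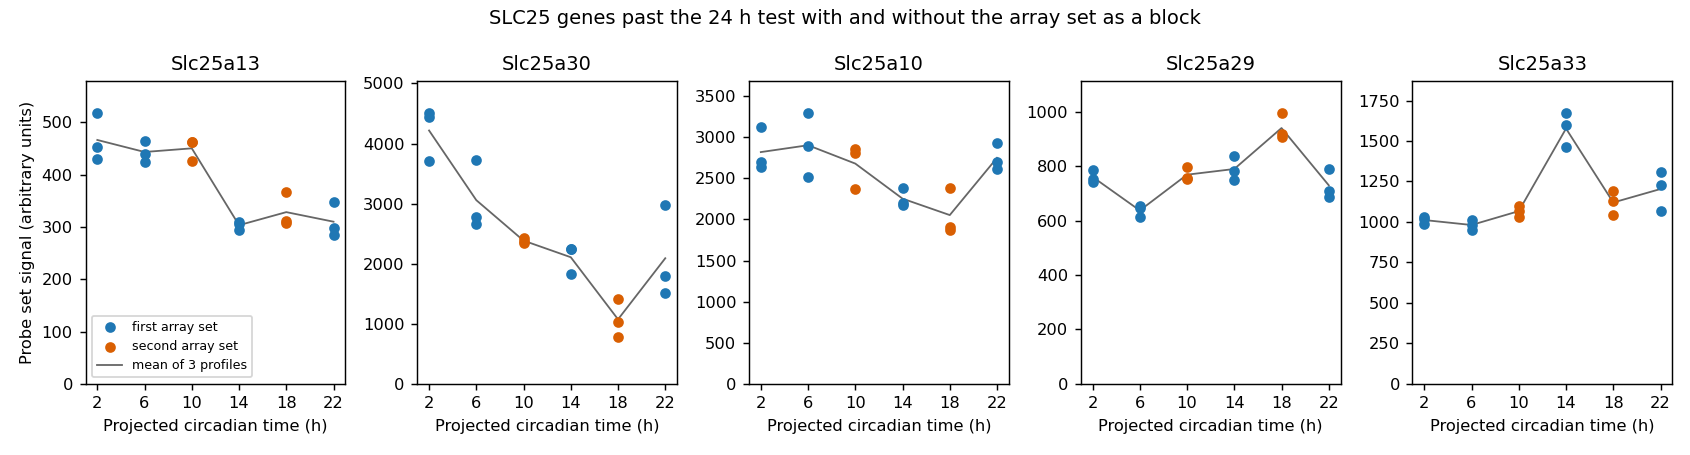
Probe set signal (arbitrary units, linear axis from 0) of the 5 carriers that passed the 24 h test with and without the array set as a term, against projected circadian time (h). Each point is 1 of 18 profiles, coloured by array set, and the line joins the means of 3 profiles. Slc25a30 ran from 4500 at CT 2 to 779 at CT 18, and Slc25a33 reached 1460 or more at CT 14 alone.

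Amino acid carriers held 2 of the 5. Slc25a13, or citrin, exchanges mitochondrial aspartate for cytosolic glutamate and is part of the malate-aspartate shuttle. Its signal was 452, 430 and 517 at CT 2, 425, 440 and 465 at CT 6, 462, 427 and 462 at CT 10, 294, 310 and 306 at CT 14, 308, 366 and 311 at CT 18, and 285, 347 and 298 at CT 22. All 9 profiles of CT 2, 6 and 10 lay above all 9 of CT 14, 18 and 22, with no overlap. The fitted amplitude was 0.30 ± 0.05 (SE), a peak-to-trough ratio of 1.51 with a peak at CT 5.76 (adjusted p = 0.00227). The array set as a term gave 0.34 ± 0.04 with a peak at CT 5.10 (adjusted p = 0.000122), and in the first set alone 0.36 (adjusted p = 0.00272). As whole glands were measured, less RNA in each cell cannot be told apart from fewer cells of the type that holds it, here and for each gene below. Slc25a12, the other aspartate and glutamate exchanger, had an amplitude of 0.06 (adjusted p = 0.702).

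Slc25a29, a carrier of basic amino acids such as arginine and lysine, ran the other way. Its signal was 754, 787 and 744 at CT 2, 646, 615 and 653 at CT 6, 752, 758 and 799 at CT 10, 839, 751 and 782 at CT 14, 921, 995 and 908 at CT 18, and 792, 689 and 711 at CT 22. The 3 profiles of CT 18 were above all others and the 3 of CT 6 were below all others. These values are of the brightest of 5 probe sets. The others passed the 24 h test in neither fit (adjusted p from 0.0511 to 0.244 over all probe sets). The amplitude was 0.18 ± 0.04 with a peak at CT 17.2 (adjusted p = 0.0264), and 0.15 ± 0.04 with a peak at CT 18.3 once the array set was a term (adjusted p = 0.0227). The second set, which holds CT 18, was higher by 0.21 on the log2 scale (adjusted p = 0.0171), and in the first set alone the amplitude was 0.12 (adjusted p = 0.222). Without the profiles of high Acta1 the amplitude was 0.16 (adjusted p = 0.136). The call was also lost, at adjusted p between 0.0529 and 0.0602, when 42 h replicate 1, 66 h replicate 2, 54 h replicate 2, the pair of 66 h replicate 1 and 42 h replicate 2, or the pair of 54 h replicate 1 and 78 h replicate 1 was left out.

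Of the other 8 tested amino acid carriers, Slc25a38 and Slc25a22 passed only with the array set as a term. Slc25a38, a glycine carrier that feeds heme synthesis, had an amplitude of 0.19 without the term (adjusted p = 0.0576) and of 0.20 ± 0.04 with it, peaking at CT 18.6 (adjusted p = 0.0107). Its signal of 499, 593 and 596 at CT 10 lay below the 790, 798 and 813 at CT 14, and the 657, 748 and 872 at CT 18 overlapped those of every time but CT 10. Slc25a22, a glutamate carrier, had an amplitude of 0.13 without the term (adjusted p = 0.224) and of 0.16 ± 0.04 with it, at CT 10.5 (adjusted p = 0.0178). It was lowest at CT 18, with 1010, 1020 and 1070, and reached 1420 to 1550 at CT 14 in the other set. Near the fitted peak, at CT 10, it read 1150, 1260 and 1480, which overlapped the 1240, 1280 and 1420 at CT 22. The fitted peak is thus not the time of highest signal: mean log2 values were 10.39 at CT 10, 10.55 at CT 6 and 10.56 at CT 14. Slc25a15 (ornithine), Slc25a18 (glutamate), Slc25a44 (branched-chain amino acids), Slc25a45 and Slc25a48 did not pass in either fit, with amplitudes from 0.04 to 0.22 without the term.

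Among the uncoupling protein relatives, carriers named for their likeness to the proton channel of brown fat, Slc25a30 (kidney mitochondrial carrier 1) varied over the day and Slc25a14 and Slc25a27 did not pass either test. The signal of Slc25a30 was 4500, 3710 and 4440 at CT 2, 2780, 2660 and 3730 at CT 6, 2340, 2430 and 2380 at CT 10, 1830, 2240 and 2250 at CT 14, 1030, 1410 and 779 at CT 18, and 1510, 2970 and 1790 at CT 22. The mean was highest at CT 2 and lower at each later time up to CT 18, whose 3 profiles were below all others. The amplitude was 0.73 ± 0.13, a peak-to-trough ratio of 2.77 with a peak at CT 4.87 (adjusted p = 0.0038). The array set as a term gave 0.63 ± 0.12 with a peak at CT 5.53 (adjusted p = 0.00383). In the first set alone it was 0.51 and did not pass (adjusted p = 0.0716). Among the members, only Slc25a30 and Slc25a13 passed in both fits with a ratio of at least 1.5 without the term. This was 2 of 40, beside 3.72% of all genes. Without the profiles of high Acta1 the amplitude was 0.56 (adjusted p = 0.0364), and without 78 h replicate 2, the lowest profile, 0.64 (adjusted p = 0.00721). All 4 tested probe sets of Slc25a30 passed in both fits, with amplitudes from 0.55 to 1.08 without the term. Slc25a14 and Slc25a27 had amplitudes of 0.11 (adjusted p = 0.548) and 0.03 (adjusted p = 0.89).

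Slc25a33 is a pyrimidine nucleotide carrier that takes up nucleotides for mitochondrial DNA and RNA synthesis. Its signal was 1030, 985 and 1020 at CT 2, 949, 984 and 1010 at CT 6, 1030, 1100 and 1070 at CT 10, 1460, 1670 and 1600 at CT 14, 1130, 1190 and 1040 at CT 18, and 1230, 1070 and 1310 at CT 22. The 3 profiles of CT 14 stood above all 15 others. The cosine gave an amplitude of 0.23 ± 0.06 and a peak at CT 15.7 (adjusted p = 0.0339). Allowing for the array set, the amplitude was 0.33 ± 0.04 with a peak at CT 15.1 (adjusted p = 9.43e-05), and in the first set alone 0.36 (adjusted p = 0.00031). Without the term the call was lost when any 1 of 9 profiles was left out, at adjusted p between 0.0531 and 0.0636: all those of CT 2, CT 6 and CT 14. The level at CT 18 did not differ from CT 10 beyond the spread (0.06 ± 0.08, adjusted p = 0.625).

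Of the other carriers of pyrimidine nucleotides and cofactors, Slc25a16, linked to coenzyme A transport, passed with the array set as a term. Its amplitude was 0.16 in each fit, with adjusted p = 0.0587 without the term and 0.0389 with it, where the peak was at CT 7.16. In the first set alone it was 0.23 (adjusted p = 0.00638): the 3 profiles of CT 22, at 996, 1010 and 1050, lay below all those of CT 6, at 1230, 1340 and 1460. Slc25a26, the carrier of S-adenosylmethionine, passed in the first set alone, with 0.22 (adjusted p = 0.0147). It had 0.18 with the array set as a term (adjusted p = 0.0846). Without 78 h replicate 2 it passed without the term (0.20, adjusted p = 0.00704) and with it (0.21, adjusted p = 0.00382). Its dimmer probe set, over all profiles, had 0.11 without the term (adjusted p = 0.504 over all probe sets). Slc25a36 (pyrimidine nucleotides), Slc25a32 (folate and FAD), Slc25a42 (coenzyme A) and Slc25a51 (NAD+) passed in none of the 3 fits. A dimmer probe set of Slc25a36 had 0.245 both without the term and with it, and passed (adjusted p = 0.0482 and 0.0338 over all probe sets). Another dimmer one of that gene passed in neither fit (adjusted p = 0.961 and 0.8).

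Slc25a10, the dicarboxylate carrier, exchanges malate and succinate for phosphate. Its signal was 3120, 2640 and 2700 at CT 2, 2520, 3290 and 2900 at CT 6, 2810, 2370 and 2860 at CT 10, 2180, 2200 and 2380 at CT 14, 2380, 1870 and 1910 at CT 18, and 2620, 2930 and 2700 at CT 22. All profiles of CT 14 and CT 18 lay at or below 2380, and those of CT 2, 6 and 22 at or above 2520. The amplitude was 0.23 ± 0.05 with a peak at CT 4.27 (adjusted p = 0.0126). Allowing for the array set, it was 0.22 ± 0.05 with a peak at CT 4.45 (adjusted p = 0.0194), and in the first set alone 0.18 (adjusted p = 0.0443). The gene's second probe set did not pass (0.22, adjusted p = 0.276), and the mean of both gave 0.22 (adjusted p = 0.0784). Slc25a1 (citrate), Slc25a11 (2-oxoglutarate), Slc25a34 and Slc25a35 passed in none of the 3 fits. Citrate carrier signals ranged from 2760 to 6810, the lowest on 78 h replicate 2.

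Adenine nucleotide and phosphate carriers included 3 of the 4 brightest members. Probe set signals do not rank the abundance of different genes. Slc25a3, the phosphate carrier, read from 9460 to 11500 with a median of 10500, and its amplitude was 0.08 (adjusted p = 0.0819), with adjusted p = 0.0588 once the array set was a term. In the first set alone it passed, with an amplitude of 0.09 (adjusted p = 0.0473). Slc25a4 and Slc25a5 are the ADP/ATP exchangers of muscle-type and of dividing tissues. Slc25a4 read from 5070 to 6140 and its amplitude of 0.08 did not pass (adjusted p = 0.0783). Slc25a5 read 5340, 5500 and 5550 at CT 2, 5320, 5480 and 6040 at CT 6, 4600, 4620 and 5100 at CT 10, 5580, 5900 and 6120 at CT 14, 5730, 6080 and 6680 at CT 18, and 5460, 5620 and 6460 at CT 22. The 3 profiles of CT 10 were the lowest of all 18. Its amplitude of 0.12 did not pass without the array set (adjusted p = 0.0914) and passed with it, at 0.13 ± 0.04 and CT 18.7 (adjusted p = 0.0463). All 8 probe sets of Slc25a5 passed with the array set as a term. In the first set alone the amplitude was 0.05 (adjusted p = 0.517), and with the term it did not pass without 78 h replicate 2 (0.11, adjusted p = 0.0805) or without the profiles of high Acta1 (0.09, adjusted p = 0.244).

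Slc25a24 is a calcium-regulated exchanger of ATP-magnesium for phosphate. It read 1970, 1980 and 2030 at CT 2 and 2480, 2820 and 2900 at CT 14, without overlap. Its amplitude was 0.18 without the array set (adjusted p = 0.115), 0.24 ± 0.06 with it, at CT 13.2 (adjusted p = 0.0217), and 0.24 in the first set alone (adjusted p = 0.0204). Its relatives Slc25a23 and Slc25a25, and Slc25a17, the peroxisomal carrier of coenzyme A and related cofactors, passed in none of the fits.

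The glutathione carrier Slc25a39 was the second brightest member, at 7630 to 9340 with a median of 8080. One of its dimmer probe sets passed with the array set as a term (amplitude 0.30, adjusted p = 0.0037 over all probe sets). The amplitude of the brightest, 0.07, did not pass in any of the 3 fits (adjusted p = 0.071 without the array set and 0.0953 with it). Neither did those of Slc25a40, the homologue of Slc25a39, or of the mitochondrial iron importers Slc25a28 and Slc25a37. Slc25a20, which brings acylcarnitines in for fatty acid oxidation, also passed in none of the 3 fits. Slc25a20 ranged widely within circadian times. At CT 22 it read 1790, 2110 and 3890 in profiles whose summed fat markers were 18600, 22400 and 39800, and Ucp1, the uncoupling protein of brown fat, read 516, 2190 and 9300 in the same profiles. At CT 14 Slc25a20 read 2670, 2780 and 3690 where fat markers summed to 26800, 29800 and 38800. The profiles with its highest levels, 3690 and 3890, thus held the highest fat sums, and the part of fat in its level was not tested. Slc25a46, a carrier homologue of the outer membrane that acts in mitochondrial dynamics, passed with the array set as a term: 0.13 ± 0.03 at CT 22.3 (adjusted p = 0.0343, and 0.0673 without the term). Its signal was 2210, 2230 and 2230 at CT 22 and 1830, 1940 and 1980 at CT 10. Slc25a47 and Slc25a53 passed in neither fit.

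**Figure D2:**
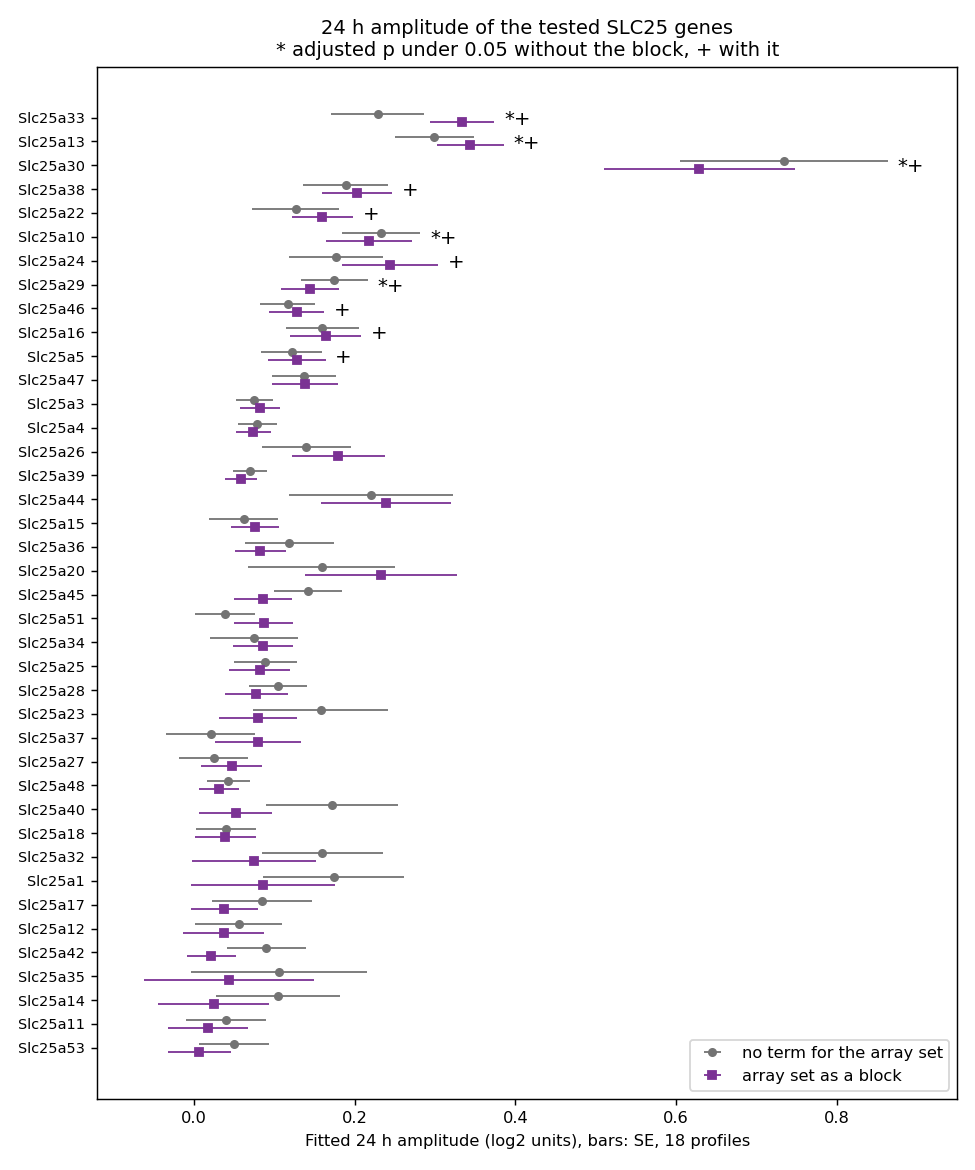
Fitted 24 h amplitude (log2 units) of the 40 tested carriers without (grey) and with (purple) the array set as a term, with bars of 1 SE over 18 profiles and genes ordered by the p-value with the term. Slc25a30, at 0.73 and 0.63, lies right of all others, and the marks show the 5 carriers that passed both tests and the 6 that passed only with the term.

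**Figure D3:**
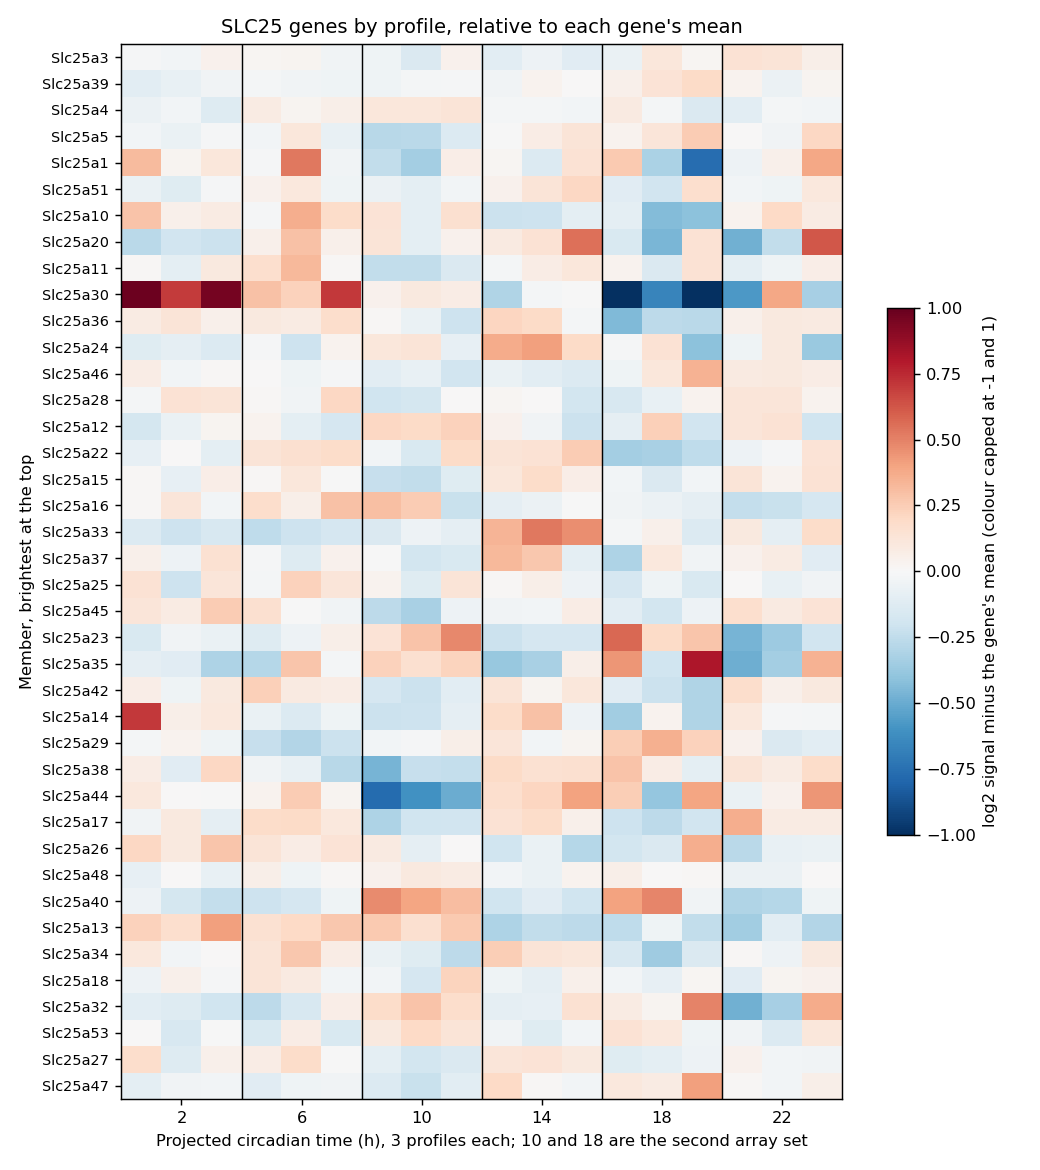
Log2 signal of each tested carrier relative to its own mean (colour, capped at -1 and 1) in the 18 profiles, 3 per projected circadian time, with the brightest probe sets at the top. Slc25a30 changes from above its mean at CT 2 to below it at CT 18, Slc25a33 is raised at CT 14 and Slc25a44 is low at CT 10.

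Promoter sequences are shown for Slc25a13, Slc25a33 and Slc25a30, the 3 rhythmic carriers in which a search found a clock-related E-box or its variant. The windows are those of RefSeq on GRCm38.p6, 250 bases before to 50 after the start, read 5' to 3' on the gene's own strand, and capitals mark the match. Entries existed for 34 of the 44 members, 32 of the 40 tested and 10 of the 11 rhythmic in either fit. They lie at chr6:6217124-6217423 on the minus strand for Slc25a13, chr4:149774218-149774517 on the minus strand for Slc25a33 and chr14:75786988-75787287 on the minus strand for Slc25a30.
Slc25a13: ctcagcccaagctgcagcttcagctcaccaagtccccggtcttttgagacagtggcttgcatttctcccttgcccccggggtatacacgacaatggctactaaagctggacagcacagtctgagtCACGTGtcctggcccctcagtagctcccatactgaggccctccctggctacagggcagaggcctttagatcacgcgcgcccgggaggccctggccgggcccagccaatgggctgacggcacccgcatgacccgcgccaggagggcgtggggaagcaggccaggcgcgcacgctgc
Slc25a33: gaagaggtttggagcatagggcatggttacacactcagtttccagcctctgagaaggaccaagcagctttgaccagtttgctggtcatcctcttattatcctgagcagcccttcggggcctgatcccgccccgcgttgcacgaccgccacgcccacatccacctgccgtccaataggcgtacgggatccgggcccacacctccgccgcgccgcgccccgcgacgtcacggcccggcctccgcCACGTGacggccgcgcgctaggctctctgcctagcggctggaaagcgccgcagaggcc
Slc25a30: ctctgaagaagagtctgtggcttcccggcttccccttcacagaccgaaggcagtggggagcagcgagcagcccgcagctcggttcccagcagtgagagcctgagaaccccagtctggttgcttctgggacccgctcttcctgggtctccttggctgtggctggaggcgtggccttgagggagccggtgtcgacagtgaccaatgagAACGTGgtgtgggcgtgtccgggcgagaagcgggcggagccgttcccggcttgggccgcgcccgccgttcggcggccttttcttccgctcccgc

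The E-box CACGTG, the letters that CLOCK and BMAL1 bind, begins 125 bases before the start in Slc25a13 and 8 before it in Slc25a33. These carriers peaked at CT 5.76 and CT 15.7. In Slc25a30 the variant CACGTT lies on the opposite strand, printed as AACGTG, 44 bases before the start. Both strands were searched in all windows. CACGTG occurred in 7 of 41 windows of tested members (Slc25a1, Slc25a13, Slc25a14, Slc25a15, Slc25a33 and Slc25a36), and in 7.15% of all 32851 windows of this length. CACGTT occurred in 2 of 41 and in 4.68% of all. AGGTCA, an element that nuclear receptors bind, occurred in 4 of 41 member windows and 16.3% of all, the D-box TTATGTAA in 0 of 41 and 0.938%, and the cyclic AMP element TGACGTCA in 2 of 41 and 1.79%. In the 12 windows of rhythmic members, CACGTG was found in 2, CACGTT in 1 and the other 3 motifs in 0. A match of letters is a description of the sequence and no evidence of binding.

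The second question was how carriers differed between late subjective day and subjective night within the second array set. There CT 10 and CT 18 can be compared without crossing sets, though control probe sets also differed between them. 18S signals were 2440 to 2652 on the arrays of CT 10 and 606 to 2000 on those of CT 18, without overlap. This technical difference cannot be told apart from that of the times, and its part in the results was not tested. From CT 10 to CT 18, 7 of 40 members rose and 5 fell (limma, adjusted p under 0.05), beside 11.6% and 9.57% of all genes. In either direction this was 12 of 40, or 30%, beside 21.2% of all genes, and at an unadjusted p under 0.05 it was 14 of 40, beside 33.2%. Slc25a30, Slc25a13, Slc25a10, Slc25a22 and Slc25a36 fell, by 1.15 ± 0.22, 0.41 ± 0.09, 0.38 ± 0.11, 0.31 ± 0.08 and 0.24 ± 0.07 on the log2 scale (SE). Slc25a44, Slc25a38, Slc25a5, Slc25a47, Slc25a29, Slc25a46 and Slc25a39 rose by between 0.71 and 0.15. The median difference was -0.004 for members and 0 for all genes. Among the cell type markers, the liver genes Apoa2 and Ttr rose between these times by 0.81 and 1.32 (adjusted p = 0.0177 and 0.0101), the medulla genes Pnmt and Th by 0.98 and 0.54 (adjusted p = 0.00151 and 0.00549), the cortex gene Nr5a1 by 0.50 (adjusted p = 0.0234) and the fat gene Lep by 1.28 (adjusted p = 0.0369). The cortex gene Star fell by 0.19 (adjusted p = 0.0167). The muscle gene Ckm differed by 0.50 and the liver gene Alb by 1.75, and neither passed (adjusted p = 0.678 and 0.158). The part of these genes' cell types in the members' differences was not tested. Without 78 h replicate 2, 5 members rose and 4 fell, beside 10.5% and 7.9% of all genes. Without all profiles of high Acta1, 1 profile remained at each of these times, assumed to vary like the others, and none of the 12 passed. One other member, Slc25a3, then rose by 0.26 (adjusted p = 0.0256), and 0 fell, beside 3.79% and 1.33% of all genes.

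Slc25a44, which carries branched-chain amino acids, had the largest rise. It read 368, 420 and 457 at CT 10 and 497, 798 and 890 at CT 18, without overlap (0.71 ± 0.17, adjusted p = 0.00572), while the first set read 633 to 923. The rise was 0.55 without 78 h replicate 2 (adjusted p = 0.0293) and 0.22 without the profiles of high Acta1 (adjusted p = 0.622). Slc25a5 rose from 4600, 4620 and 5100 to 5730, 6080 and 6680, again without overlap (0.36 ± 0.07, adjusted p = 0.00179). Slc25a38 rose by 0.40 ± 0.11 (adjusted p = 0.0124), from values up to 596 to values of at least 657. Slc25a47 is a carrier best known from liver. It rose from 171, 185 and 190 to 224, 228 and 294 (0.36 ± 0.09, adjusted p = 0.00955). Without 78 h replicate 2, whose liver markers summed to 17000, that difference was 0.25 (adjusted p = 0.0446). The pair of 54 h replicate 1 and 78 h replicate 1 was still included. Its liver markers summed to 7170, against 1750 to 2190 at CT 10. Without the profiles of high Acta1, which leaves 1 profile at each time, the difference of Slc25a47 was 0.31. Slc25a39 read 7940, 8090 and 8120 at CT 10 and 8480, 9020 and 9340 at CT 18, a rise of 0.15 ± 0.04 (adjusted p = 0.0148). Without 78 h replicate 2 the differences of Slc25a39, Slc25a46 and Slc25a10 were 0.12, 0.16 and -0.33 and did not pass (adjusted p = 0.0593, 0.0814 and 0.0621). Under quantile normalization Slc25a39 rose by 0.08 and did not pass (adjusted p = 0.15), whereas Slc25a4 fell by 0.21 and passed (adjusted p = 0.0162). Without that normalization Slc25a4 changed by -0.146 (adjusted p = 0.0528). Its dimmer probe sets then changed by 0.028 and -0.001 (adjusted p = 0.768 and 0.994 over all probe sets).

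Among the carriers that fell, Slc25a30 dropped from 2340, 2380 and 2430 to 779, 1030 and 1410 (adjusted p = 0.00115). In the single profile of each time with low Acta1 it read 2430 and 1410. Slc25a13 fell from at least 427 to at most 366 (adjusted p = 0.00312). Slc25a22 fell from 1150, 1260 and 1480 to 1010, 1020 and 1070 (adjusted p = 0.0115), and Slc25a36 from 1890, 2090 and 2210 to 1610, 1810 and 1820 (adjusted p = 0.0307). Neither overlapped between the times. Slc25a10 overlapped at its edges, with 2370, 2810 and 2860 against 1870, 1910 and 2380 (adjusted p = 0.0179).

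A test that allowed any pattern over the 6 circadian times called 25 of 40 members (62.5%), beside 53.9% of all genes. It cannot hold a term for the array set and counts differences between the sets too. The second set differed from the first in 19 of 40 members, beside 47.3% of all genes. Of these 13 were lower and 6 higher, beside 29.6% and 17.7% of all genes, shares close to the background. Kidney markers (5 of 5) summed to 2014 to 2365 in the first set and 1051 to 1707 in the second, without overlap, and Slc34a1 changed by -1.01 (adjusted p = 3.74e-08). Blood markers (3 of 5) summed to 637 to 855 and 821 to 1724, and Hba-a1 was higher by 1.52 (adjusted p = 1.02e-07). The other blood markers, Alas2 and Slc4a1, changed by -0.018 and -0.009 and did not pass (adjusted p = 0.936 and 0.921). The part of either in the members' differences was not tested. After quantile normalization 11 were lower and 9 higher. That moved the lower share from 68.4% to 55% of called members, and from 62.6% to 54.9% of called genes. The difference between the sets cannot be told apart from that of CT 10 and CT 18 against the other times.

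The 3 members most raised in the second set were Slc25a40, Slc25a23 and Slc25a35. Slc25a40 (glutathione) read 302 to 370 with a median of 330 in the 12 first-set profiles and 371 to 556 with a median of 520 in the 6 of the second (0.51 ± 0.07, adjusted p = 5e-06). Slc25a23 (ATP-magnesium and phosphate) read 659 to 973 against 1030 to 1410, with medians of 829 and 1145 (0.49 ± 0.08, adjusted p = 3e-05). Neither gene overlapped between the sets. Slc25a35, of unsettled substrate, did overlap, with 549 to 1020 against 680 to 1420 and medians of 682 and 932 (0.42 ± 0.13, adjusted p = 0.0148), and did not pass without the profiles of high Acta1 (0.12, adjusted p = 0.654). The 3 most lowered were Slc25a30, Slc25a44 and Slc25a17. Slc25a30 read 1510 to 4500 (median 2720) against 779 to 2430 (median 1875), and fell by 0.76 ± 0.26 on the log2 scale (adjusted p = 0.021). This call was lost without 78 h replicate 2 (-0.56, adjusted p = 0.069) and without the profiles of high Acta1 (-0.53, adjusted p = 0.256). Slc25a44 read 633 to 923 (median 703) against 368 to 890 (median 477), and fell by 0.41 ± 0.14 (adjusted p = 0.0204). Its dimmer probe sets changed by -0.148 and 0.134 and did not pass (adjusted p = 0.165 and 0.583 over all probe sets). Slc25a17 read 607 to 847 (median 698) against 514 to 563 (median 557), with no overlap, and fell by 0.34 ± 0.06 (adjusted p = 5.1e-05). Slc25a40, Slc25a23, Slc25a44 and Slc25a17 passed in both of these smaller fits.

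**Figure D4:**
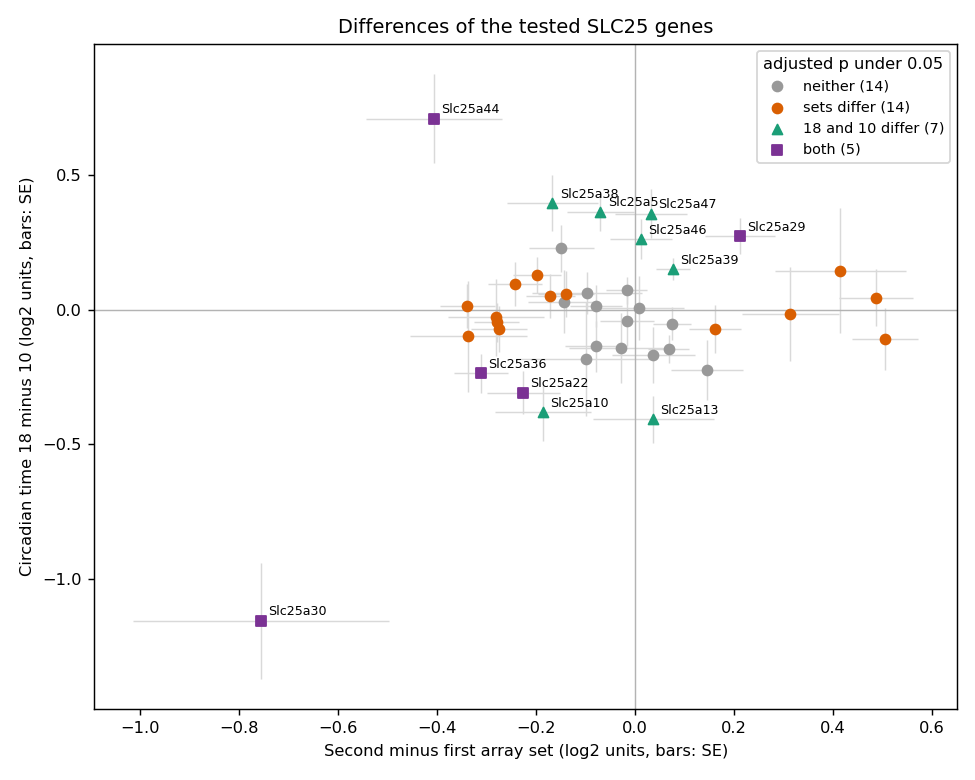
Difference between the array sets (second minus first, horizontal, log2 units) and between CT 18 and CT 10 (vertical, log2 units) for the 40 tested carriers, with bars of 1 SE. Shapes mark the 14 genes past neither threshold, 14 past that of the sets, 7 past that of the times and 5 past both, and genes that differ between the times are named. Slc25a30 lies lowest, at -0.76 and -1.15, and Slc25a44 highest, at 0.71.

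Whether the rhythm differed between the consecutive days was tested on the 13 profiles that belong to 1 cycle alone. The interaction of cycle with the 24 h cosine passed in 0 of 13880 genes and 0 members (limma), 0% of the background. At an unadjusted p under 0.05 it held 325 genes (2.34%) and 0 members.

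Different probe sets of a carrier did not always give the same picture. Besides the chosen ones, 38 probe sets of 19 members were tested, of which 28 fell on the same side of the rhythm threshold as the chosen one without the array set as a term and 30 with it. In Slc25a44 the brightest probe set rose from CT 10 to CT 18 by 0.71, whereas another fell by 0.87 ± 0.26 (adjusted p = 0.0253 over all probe sets). The brightest probe set of Slc25a24 changed by -0.14 ± 0.13, and its other one fell by 0.98 ± 0.20 (adjusted p = 0.00194). The other probe set of Slc25a24 also peaked earlier in the fit with the array set, at CT 9.79 (amplitude 0.42, adjusted p = 0.0114), against CT 13.2. In Slc25a39 a dimmer probe set rose by 0.66 ± 0.10 (adjusted p = 0.000188), and 3 others differed by 0.02 to 0.20 and did not pass. The former passed the 24 h test with the array set as a term (amplitude 0.30, adjusted p = 0.0037). Without the term it had 0.24 (adjusted p = 0.113), and the 3 others passed in neither fit. In Slc25a36 a dimmer probe set fell by 0.61 ± 0.14 (adjusted p = 0.00517), in the direction of the brightest. In Slc25a29 the brightest of 5 probe sets rose by 0.27, and the others by 0.15 to 0.24 without passing (adjusted p from 0.156 to 0.615). The dimmer probe set of Slc25a46 rose by 0.06 (adjusted p = 0.579) and had no rhythm past the threshold with the array set as a term (adjusted p = 0.32). Values of these genes therefore describe single probe sets, whereas all 4 of Slc25a30 fell and 6 of 8 of Slc25a5 rose.

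**Figure D5:**
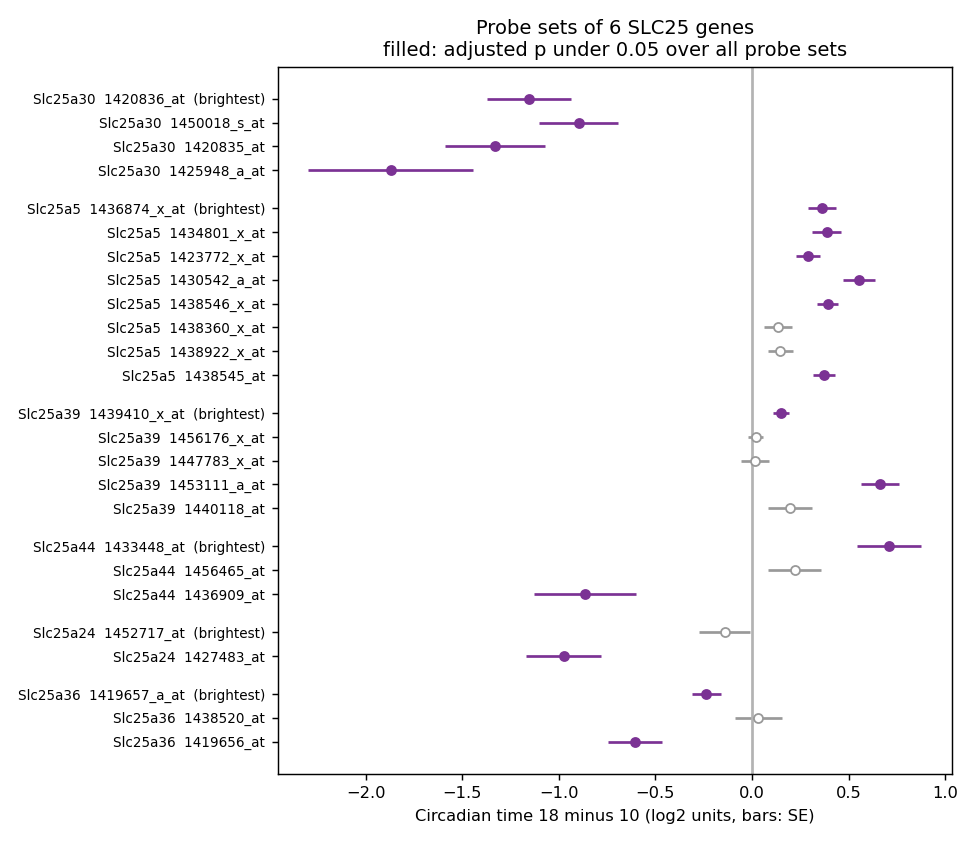
Difference between CT 18 and CT 10 (log2 units, bars 1 SE) for each tested probe set of 6 carriers, filled where the adjusted p over all probe sets was under 0.05. The 4 probe sets of Slc25a30 lie between -1.87 and -0.90, the 8 of Slc25a5 all lie above 0, and those of Slc25a44 lie on both sides, at 0.71 and -0.87.

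Genes that work beside the carriers were counted by list. Carrier import genes, which encode the outer membrane receptors, the small chaperones of the intermembrane space and the TIM22 complex that inserts carriers, had 12 tested members. Of these 2 passed the 24 h test in both fits and 5 with the array set as a term, beside 11% and 17.9% of all genes. Timm8a1, a small intermembrane chaperone, had an amplitude of 0.23 ± 0.04 at CT 17.2 (adjusted p = 0.0017). Its relative Timm8b had one of 0.35 ± 0.09 at CT 21.7 (adjusted p = 0.0264). In the first set alone Timm8a1 had 0.18 (adjusted p = 0.00377), and Timm8b had 0.09 and did not pass (adjusted p = 0.122). Timm8b had a mean log2 signal of 10.56 at CT 10, in the second set, and of 11.41 to 11.56 at the other times. From CT 10 to CT 18, 8 of the 12 rose and 1 fell, beside the 11.6% and 9.57% of all genes given above. Of 21 tested enzymes that use or make the substrates of the carriers, 3 passed in both fits, beside the same 11%. Me1 (malic enzyme) had 0.12 ± 0.02 at CT 1.43 (adjusted p = 0.0101). Got1, the cytosolic aspartate aminotransferase that works with Slc25a13 in the malate-aspartate shuttle, had 0.38 ± 0.09 at CT 19.3 (adjusted p = 0.0206). Cpt1a, which makes the acylcarnitines that Slc25a20 carries, had 0.17 ± 0.04 at CT 8.85 (adjusted p = 0.0158). In the first set alone Me1 and Cpt1a passed (adjusted p = 0.00222 and 0.0497) and Got1 did not (0.38, adjusted p = 0.0815). Of 9 regulators of mitochondrial genes, Pprc1, a coactivator related to PGC-1, and Tfam, the mitochondrial transcription factor, passed in both fits, against 11% of all genes, at CT 12.3 (0.35 ± 0.05, adjusted p = 0.00134) and CT 22.7 (0.13 ± 0.03, adjusted p = 0.0414). In the first set alone Pprc1 passed (0.27, adjusted p = 0.0113) and Tfam did not (0.09, adjusted p = 0.0962). None of 10 other channels and transporters of the mitochondrial membranes and none of 4 carrier relatives with other symbols passed in either fit.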

How the data were processed

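Signals of 45101 Affymetrix probe sets on 24 arrays were used as the intensity values that the authors deposited, on a linear scale. Total RNA was extracted with an RNeasy Micro kit and labelled with biotin, per the labels' protocols. The summary and scaling method and any build are not given in the sources used here. Members and gene lists were chosen with earlier results of these data known, which gives their counts no independent weight.

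Values were analysed as log2(intensity + 51), 51 being the 10th percentile, which understates differences of dim genes. Of the probe sets 64 were controls, 34945 had 1 gene symbol, 932 had several and 9160 were unnamed. Of the named, 34741 were found in the RefSeq gene table, and 0 symbols changed. The filter on dim signals removed probe sets with a mean below the 40th percentile, a signal of 183. One more probe set names Slc25a37 together with another gene and was not used. Near-copy arrays were averaged on the log2 scale. The array sets were separated by the ThrX-3 control at 300, and each circadian time lies in 1 set.

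Models with a variance trend were fitted in R 4.3.3 by the package limma (version 3.58.1; data.table at version 1.17.8), and p-values were adjusted by Benjamini-Hochberg over all 13880 genes. The scripts were tested on simulated data. Full values are given for members that passed the 24 h test in both fits. Members that passed in 1 fit, those that differed between CT 18 and CT 10, the 3 brightest, and the 3 largest differences between sets in either direction are also named. Genes of other lists are named if they passed in both fits. The probe sets set against each other, and the values of Slc25a20 beside fat markers, were singled out after their values were seen. Alternatives were the array set, offsets, filters, quantile normalization, probe set choice, all 24 arrays, no trend, the replicate number and leaving out profiles. The number of arrays limits the precision.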

Additional observations from a re-analysis of the deposited data

How the results depend on the processing

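The count of 5 rhythmic members was 11 with the array set as a term, 9 without 78 h replicate 2, 8 without the profiles of high Acta1 and 17 with all 24 arrays taken as separate. The count with that term was 18 over all 24 arrays. The all-gene count of 1777 was 1018 without the profiles of high Acta1 and 4193 over all 24 arrays. The 12 members that differed between CT 18 and CT 10 became 1 without the profiles of high Acta1, where fewer samples remain. That 1, Slc25a3, is not among the 12. Taking near-copies as separate counts the same values again. When each profile was left out in turn, rhythmic members numbered 3 to 9, with 3 without 42 h replicate 1 or 66 h replicate 2. In the fit with the array set they numbered 6 to 12, with 6 without 50 h replicate 2 or the pair of 50 h replicate 1 and 74 h replicate 2, and 7 without 46 h replicate 1. The all-gene count ran from 1178 (without 46 h replicate 1) to 2210, the members differing between CT 18 and CT 10 from 8 to 13, and those differing between the sets from 16 to 21.

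Over 31 alternatives Slc25a13 kept its call in 31, Slc25a10 in 30 (not for the mean of its probe sets), Slc25a30 in 30 (not in the first set alone), Slc25a29 in 23 and Slc25a33 in 21. The offsets, both other filters, quantile normalization and the fit without a trend kept the 5 calls. With the replicate number as a block 4 members passed without the array set as a term (3 of them among the 5; adjusted p = 0.051 for Slc25a33 and 0.0515 for Slc25a29) and 8 with it. Deviations of same-numbered arrays had correlations from -0.56 to 0.53 over 11 time points, so the numbers do not pair the arrays. The time point as a random block was not run, since after averaging no more than 1 time point holds 2 profiles of its own and no correlation could be estimated. The smallest signals limit dim members, and 4 lay under the filter.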
